A study of Ovis aries with 23 samples.

Results

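ARNTL2, ARNTL, and CLOCK are the genes of the positive arm of the circadian clock that could be paired with a row of the deposited count tables. They are 3 of the 25197 Ensembl sheep genes counted: ARNTL2 is ENSOARG00000019779, ARNTL is ENSOARG00000007809, and CLOCK is ENSOARG00000001602. They were chosen by their role, but earlier results of these data were known, and their symbols were paired with identifiers through gene lists that the study drew from its own RNA-seq comparisons, so the choice was not independent of these values. The tissue was the pars tuberalis (PT), the melatonin-responsive stalk of the anterior pituitary, from castrate male Scottish blackface sheep. RNA sequencing (RNA-seq) covered 23 samples in 4 groups: sheep on short photoperiods (SPs, 5 samples) and sheep moved from SPs to long photoperiods (LPs) and sampled after 1, 7, or 28 days (6 samples each). All animals were neutered, so sex steroids from the testis were lacking in every group. The labels give no animal number and no time of day, and p-values therefore measure the spread between these samples.

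In the circadian clock, ARNTL (also called BMAL1) or its paralog ARNTL2 (BMAL2) forms a heterodimer with CLOCK, and the dimer binds E-box elements and drives transcription. Among the genes it drives are the Period and Cryptochrome genes, whose proteins return to repress it, and NR1D1 and NR1D2, nuclear receptors that repress ARNTL transcription. In the PT the clock is set by the nightly melatonin signal, whose duration follows the length of the night. The comparisons below ask between which groups the transcripts of the activators differed. The labels do not give the time of sampling in each group, and its part in these differences was not tested.

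Depth limited what could be seen of ARNTL2 and CLOCK. Total counts per sample lay between 307952 and 4413929, and LP day 1 sample 4 was the shallowest, with the next sample at 1852503. A count of 3, taken here as the floor, was worth 9.74 CPM (counts scaled to a common sample total) in that sample and at most 1.62 CPM in the others. The ARNTL2 and CLOCK values of LP day 1 sample 4, both 0 counts, thus lay under a floor higher than most of the values below. LP day 1 samples 3 and 4, the pair with the lowest chi-square per gene, still differed by more than sampling noise, and both were kept. That measure is lower at low depth, so it does not rank the pairs by likeness. The paper reports TSHB protein in thyrotrophs of both the PT and the pars distalis, so its counts do not mark the PT alone. The hormone subunit genes CGA and TSHB were counted in all 23 samples, the latter between 97 and 6840 counts. So were genes of the neighboring pars distalis: the summed level of 6 of 6 such genes (PRL, GH1, FSHB, LHB, POMC, and POU1F1) ranged from 34994 to 140940 CPM on SPs, 46564 to 271105 CPM at LP day 1, 46515 to 176716 CPM at LP day 7, and 74590 to 272700 CPM at LP day 28. In such bulk samples, fewer cells of a type and less RNA per cell cannot be told apart, and the part of pars distalis RNA in the values of the clock genes was not tested.

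ARNTL2, the BMAL paralog, was scarcely counted on SPs and after 1 day of LPs and was clearly counted at days 7 and 28. The 5 SP samples held 0.795, 0, 0.289, 0.324, and 0 CPM, with at most 3 counts in a sample. At LP day 1 the lowest, median, and highest values were 0, 0.521, and 0.937 CPM, again with at most 3 counts. At LP day 7 they were 1.48, 3.02, and 9.93 CPM, from 5 to 39 counts. At LP day 28 they were 3.41, 7.54, and 11.3 CPM, from 11 to 38 counts. The 6 samples of day 7 and the 6 samples of day 28 each lay above every SP sample and above every LP day 1 sample, while days 7 and 28 overlapped. The spread among the day 7 samples was wide, and sample 5, at 9.93 CPM, held more than 6 times the level of sample 2, at 1.48 CPM.

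Group means of ARNTL2 were 0.281 ± 0.325 CPM on SPs (SD, n = 5), 0.547 ± 0.357 CPM at LP day 1 (SD, n = 6), 4.23 ± 3.16 CPM at LP day 7 (SD, n = 6), and 7.41 ± 3.48 CPM at LP day 28 (SD, n = 6). Summed over samples, 5 ARNTL2 reads on SPs stood against 10 at day 1, 91 at day 7, and 135 at day 28. As CPM of the summed totals, these came to 0.300 (95% exact Poisson interval 0.0973 to 0.700), 0.656 (0.315 to 1.21), 4.53 (3.65 to 5.56), and 6.96 (5.83 to 8.23). The ratio of these rates to the SP rate was 2.19 at day 1 (counting interval 0.682 to 8.16), 15.1 at day 7 (6.24 to 47.6), and 23.2 at day 28 (9.70 to 72.6). The intervals cover counting error only, and not the spread between sheep, and repeat reads of a molecule could not be removed.

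**Figure D1:**
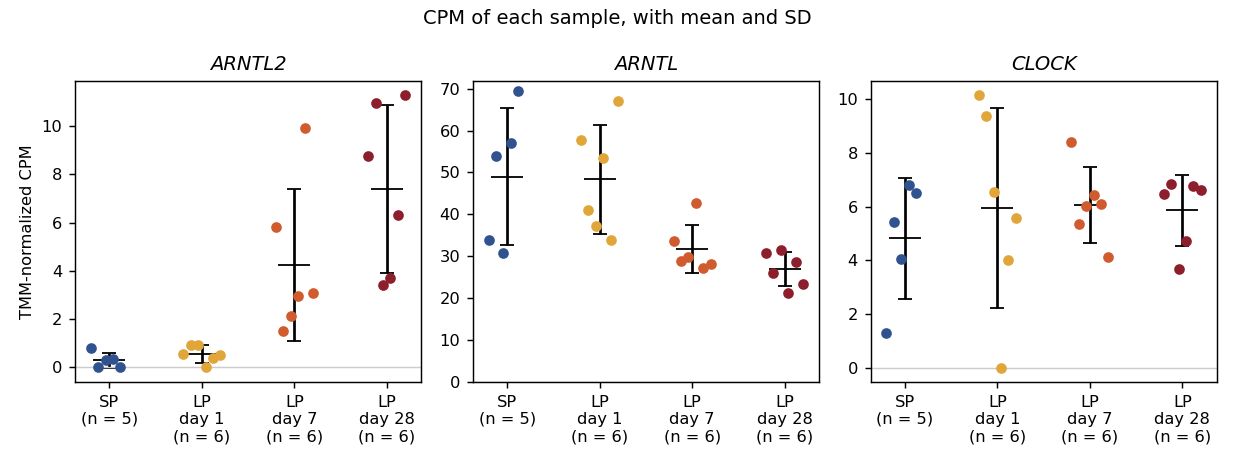
TMM-normalized CPM (linear axes) of ARNTL2, ARNTL, and CLOCK in each of the 23 samples (points, in order of sample number), with the mean (horizontal bar) and SD (vertical bar) of SPs and LP days 1, 7, and 28. ARNTL2 stays under 1 CPM on SPs and at LP day 1 and lies at or above 1.48 CPM afterward, the ARNTL means are lower at days 7 and 28 than on SPs, and the groups of CLOCK overlap.

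ARNTL2 rose from SPs to LP day 7 and to LP day 28. The log2 fold change at day 28 was 4.47 (SE 0.59, edgeR Benjamini-Hochberg FDR = 7.85e-04), in a comparison that called 0.67% of the 14929 genes tested and placed ARNTL2 second among them by fold change. At day 7 it was 3.70 (SE 0.71, edgeR Benjamini-Hochberg FDR = 0.0463), where 0.266% of 15030 genes were called. Groups that did not overlap, with the LP group higher, were found for 1.26% of the genes tested at day 7 and for 1.11% at day 28. No SP sample exceeded 1 CPM, so ARNTL2 passed the filter on low counts through its LP samples alone. The call at day 28 was kept without any single sample (FDR 7.62e-04 to 0.00359). The call at day 7 rested on the full set of samples: without any of the 5 SP samples, or without LP day 7 sample 1, 4, or 5, the edgeR Benjamini-Hochberg FDR rose above the threshold of 0.05, to at most 0.122. Over all 11 fits that left out a sample, its log2 fold change lay between 3.22 and 4.49.

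Within LPs, the change in ARNTL2 lay between day 1 and day 28. No LP day 1 sample exceeded 1 CPM. In the comparisons of day 1 with day 7 or day 28, ARNTL2 thus passed the filter on low counts through its later samples alone. From day 1 to day 28 the log2 fold change was 3.42 (SE 0.46, edgeR Benjamini-Hochberg FDR = 6.89e-04), with 0.216% of 14820 genes called and 0.331% of genes not overlapping with day 28 higher. From day 1 to day 7 it was 2.63 (SE 0.55), and although no sample of one day overlapped the other, as was so for 0.134% of genes in that direction, the edgeR Benjamini-Hochberg FDR was 0.202 (unadjusted p 1.56e-04). Only 0.0201% of the genes tested were called there. From day 7 to day 28 it was 0.78 (95% interval -0.10 to 1.66, edgeR Benjamini-Hochberg FDR = 0.762), where 0.00672% of genes were called. Between SPs and day 1 ARNTL2 missed the filter of more than 1 CPM in at least 5 samples, and no test was made. In that comparison edgeR called 0% of 14920 genes, 497 had an unadjusted p under 0.05, and DESeq2 called 2.

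ARNTL, the main BMAL gene of the mammalian clock, was lower on average at LP days 7 and 28 than on SPs. The direction was opposite to that of ARNTL2. In the main edgeR fits ARNTL was called only from SPs to day 28, close to the threshold. On SPs the 5 samples held 33.9, 53.8, 30.9, 57.0, and 69.4 CPM, the 2 lowest being samples 1 and 3. At LP day 1 the lowest, median, and highest values were 33.9, 47.2, and 66.9 CPM, much as on SPs. At LP day 7 they were 27.2, 29.3, and 42.7 CPM, and at LP day 28 they were 21.2, 27.3, and 31.6 CPM. Of the 6 samples of day 7, 4 lay below every SP sample. At day 28, 5 of 6 lay below every SP sample, and all 6 lay below every LP day 1 sample, a separation found for 0.196% of the genes tested with day 28 lower.

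Means of ARNTL were 49.0 ± 16.3 CPM on SPs (SD, n = 5), 48.3 ± 13.03 CPM at day 1 (SD, n = 6), 31.7 ± 5.82 CPM at day 7 (SD, n = 6), and 26.9 ± 4.12 CPM at day 28 (SD, n = 6). The coefficient of variation was 33.2% on SPs, 27.0% at day 1, 18.4% at day 7, and 15.3% at day 28. ARNTL fell from SPs to LP day 28, by 0.86 on the log2 scale (SE 0.19, edgeR Benjamini-Hochberg FDR = 0.0481), and 0.248% of genes were called lower in that comparison. This call was close to the threshold and was kept only without SP sample 1 or SP sample 3, the 2 lowest SP samples. Leaving out any of the other 9 samples ended it, and over all 11 such fits the edgeR Benjamini-Hochberg FDR ranged from 0.0169 to 0.129 and the log2 fold change from -0.99 to -0.70. At LP day 7 the log2 fold change from SPs was -0.63 (95% interval -1.04 to -0.21, edgeR Benjamini-Hochberg FDR = 0.162), and at day 1 it was -0.04 (95% interval -0.51 to 0.43). From day 1 to day 28 it was -0.82 (SE 0.17, edgeR Benjamini-Hochberg FDR = 0.0652), from day 1 to day 7 it was -0.59 (FDR 0.738), and from day 7 to day 28 it was -0.23 (FDR 0.794). For the change from day 1 to day 28, leaving out LP day 1 sample 2 or sample 5 brought the FDR under 0.05, to at lowest 0.0244.

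CLOCK, the partner of both BMAL proteins, was counted at a low level with no difference between groups that could be detected at this depth. The 5 SP samples held 1.32, 5.42, 4.04, 6.81, and 6.49 CPM, from 5 to 23 counts. The lowest, median, and highest values were 0, 6.07, and 10.2 CPM at LP day 1, 4.12, 6.06, and 8.41 CPM at day 7, and 3.70, 6.55, and 6.84 CPM at day 28. The 0 was the shallow LP day 1 sample 4, and the lowest of the other samples was SP sample 1. Means were 4.82 ± 2.23 CPM on SPs (SD, n = 5), 5.94 ± 3.72 CPM at day 1 (SD, n = 6), 6.07 ± 1.41 CPM at day 7 (SD, n = 6), and 5.85 ± 1.32 CPM at day 28 (SD, n = 6), and the groups overlapped in all 6 comparisons.

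Log2 fold changes of CLOCK from SPs were 0.51 at day 1 (95% interval -0.35 to 1.37), 0.35 at day 7 (-0.35 to 1.05), and 0.28 at day 28 (-0.44 to 1.00). Within LPs they were -0.18 from day 1 to day 7, -0.06 from day 7 to day 28, and -0.24 from day 1 to day 28 (95% interval -0.89 to 0.42). The lowest edgeR Benjamini-Hochberg FDR of CLOCK among the 6 comparisons was 0.68. From SPs, the intervals thus reached an increase of 2-fold or more on the upper side, and on the lower side went no further than -0.44.

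**Figure D2:**
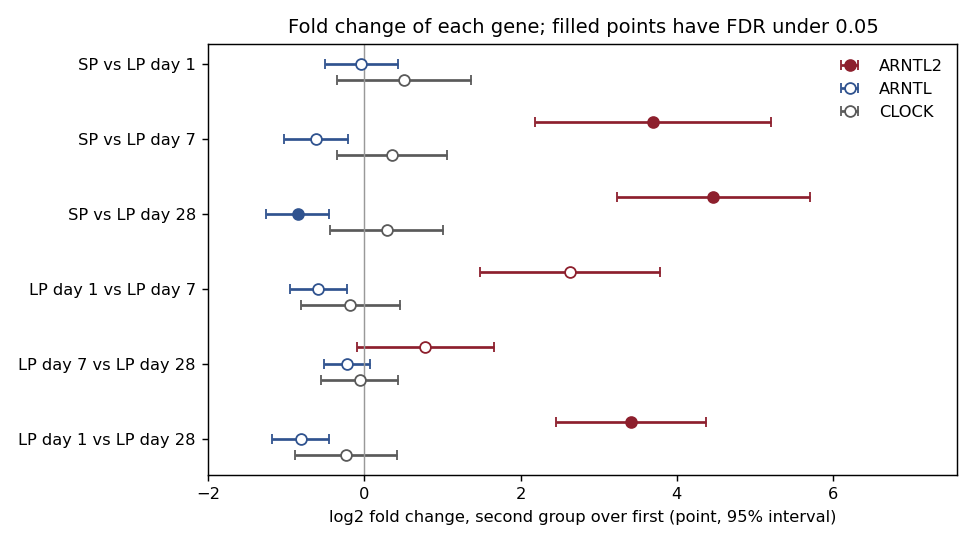
Log2 fold change (horizontal axis, second group over first) of ARNTL2, ARNTL, and CLOCK in 6 comparisons between SPs and LP days 1, 7, and 28, with 95% intervals from edgeR (bars), filled where the FDR was under 0.05. ARNTL2 is filled for SPs against days 7 and 28 and for day 1 against day 28, ARNTL for SPs against day 28 (-0.86), CLOCK in none, and ARNTL2 has no point for SPs against day 1 because it missed the filter.

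Each sample was next read as a ratio between members, in which, apart from the pseudocount, the length of a transcript and the scaling of the sample cancel when groups are compared. The log2 ratio of ARNTL2 to ARNTL, each as CPM + 0.5, was -4.73, -6.76, -5.31, -6.13, and -7.13 in the SP samples. Its mean was -6.01 ± 0.99 on SPs (SD, n = 5), -5.58 ± 0.78 at LP day 1 (SD, n = 6), -2.99 ± 0.93 at day 7 (SD, n = 6), and -1.91 ± 0.75 at day 28 (SD, n = 6). Because ARNTL2 alone was separated in each of these comparisons, the separation of the ratio and its p-values largely repeat that result. No sample of day 7 or day 28 overlapped the SP or LP day 1 samples in this ratio. The difference from SPs was 3.03 at day 7 and 4.10 at day 28, each with an exact two-sided permutation p of 0.00433, the smallest that 5 against 6 samples can give, and 0.0130 after Benjamini-Hochberg adjustment over 18 comparisons. From day 1 the differences were 2.60 at day 7 and 3.67 at day 28 (exact permutation p 0.00216, the smallest possible for 6 against 6, adjusted 0.0130). From day 7 to day 28 the difference was 1.07 (exact permutation p 0.0606, adjusted 0.0839), and from SPs to day 1 it was 0.43 (exact permutation p 0.429, adjusted 0.482). The pseudocount of 0.5 CPM bounds the ratio where ARNTL2 was at or near 0, so these differences understate a change from so low a level.

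Against CLOCK, the ratios of ARNTL2 and of ARNTL differed from SPs in opposite directions. The log2 ratio of ARNTL2 to CLOCK was -2.71 ± 1.33 on SPs (SD, n = 5) and 0.21 ± 0.44 at LP day 28 (SD, n = 6), a difference of 2.92 (exact permutation p 0.00433, adjusted 0.0130). At day 7 the difference from SPs was 2.03 (exact permutation p 0.0216, adjusted 0.0433), but leaving out any sample other than SP sample 1 brought the adjusted p above 0.05, to at most 0.0779. From day 1 the ratio differed by 2.45 at day 28 (exact permutation p 0.00866, adjusted 0.0195) and by 1.55 at day 7 (exact permutation p 0.0281, adjusted 0.0506). The day 1 mean includes sample 4, whose ratio of 0.0 came from 0 counts of both genes, and without it the difference from day 1 to day 7 was 2.00 (adjusted exact permutation p 0.0111), with all 5 remaining day 1 samples below every day 7 sample. The log2 ratio of ARNTL to CLOCK was 3.30 ± 0.56 on SPs (SD, n = 5), 2.30 ± 0.29 at day 7 (SD, n = 6), and 2.12 ± 0.42 at day 28 (SD, n = 6). It was thus lower than on SPs by a difference of -1.002 at day 7 (exact permutation p 0.00433, adjusted 0.0130) and of -1.18 at day 28 (exact permutation p 0.00866, adjusted 0.0195). Both adjusted p values stayed under 0.05 without any single sample, but they were adjusted over 18 ratio comparisons only. ARNTL alone, adjusted over all genes tested, had an edgeR Benjamini-Hochberg FDR of 0.162 at day 7 and 0.0481 at day 28. At LP day 1 the ratio to CLOCK carried the 0 of sample 4: the mean of ARNTL to CLOCK was 3.35 ± 1.74 (SD, n = 6), and its difference from SPs of 0.04 turned to -0.64 without that sample.

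**Figure D3:**
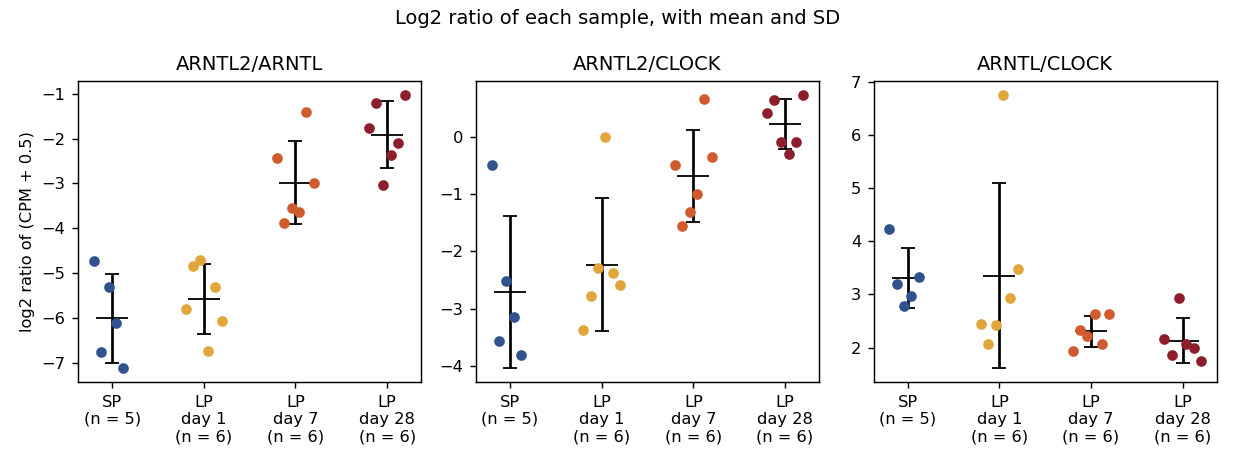
Log2 ratio of (CPM + 0.5) between pairs of the 3 genes in each sample (points), with mean (horizontal bar) and SD (vertical bar) for SPs and LP days 1, 7, and 28. The ratio of ARNTL2 to ARNTL is highest at day 28 (mean -1.91) and lowest on SPs (mean -6.01), and LP day 1 sample 4, with 0 CLOCK counts, stands at 6.75 in the ratio of ARNTL to CLOCK.

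In the file headers, samples 1 to 3 of each group (set A) carry numbers from 1 to 12. Samples 4 to 6 (set B) carry numbers from 2 to 16. No number repeats within a set, and several occur in both. The sets are thus a grouping by sample number, and the headers do not say what they are. Within set A the log2 fold change of ARNTL2 from SPs to LP day 28 was 4.17, and within set B it was 5.19. For LP day 7 these values were 2.89 and 4.86. The change in ARNTL from SPs to day 28 was -0.43 (SE 0.23) within set A and -1.38 (SE 0.20) within set B. None of these values within a set passed an edgeR Benjamini-Hochberg FDR of 0.05, with 2 or 3 samples against 3. A test of the difference between sets gave -0.95 for ARNTL (SE 0.32, unadjusted edgeR p 0.00923), which did not pass after Benjamini-Hochberg adjustment over 14929 genes (edgeR FDR 1.00). ARNTL on SPs was 33.9, 53.8, and 30.9 CPM in set A and 57.0 and 69.4 CPM in set B. With 3 and 2 samples, these values do not show whether the sets differ. With the set as a covariate, the log2 fold change of ARNTL at day 28 was -0.85 (edgeR Benjamini-Hochberg FDR = 0.0638), that of ARNTL2 at day 7 was 3.61 (FDR 0.0632), and the calls of ARNTL2 at day 28 were kept.

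Of 26 clock genes listed by role, 14 could be paired with a count row: the 3 members and 11 others. The pairing of symbols with Ensembl identifiers came from gene lists that the study drew from its own RNA-seq comparisons, and these 11 are therefore not an independent sample of the clock. They were PER1, PER3, CRY1, and CRY2, the repressors CIART and BHLHE41, the nuclear receptors NR1D1 and NR1D2, the D-box factors DBP and TEF, and FBXL21, which acts in Cryptochrome turnover. By edgeR none of the 11 was called in any of the 6 comparisons between groups. From SPs to LP day 7, 10 of 11 had a log2 fold change above 0, with a median of 0.46 beside -0.01 over all genes tested. Of the 11, 5 had an unadjusted edgeR p under 0.05, as did 2157 of all 15030 genes tested. From SPs to LP day 28 the same counts held, 10 above 0 and 5 with an unadjusted edgeR p under 0.05. The median was 0.46 beside -0.01 over all genes, and 2063 of all 14929 genes had an unadjusted edgeR p under 0.05. DESeq2 called 1 of the 11, CIART at day 7, and none in the other comparisons. At day 7 it called 357 of the 12960 genes given an adjusted p.

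Among the targets and repressors, log2 fold changes from SPs to LP days 7 and 28 lay between -0.81 for CRY1 and 1.99 for CIART. CIART, a repressor of CLOCK and BMAL dimers, had a log2 fold change from SPs of 1.99 at day 7 (SE 0.49, edgeR Benjamini-Hochberg FDR = 0.0852) and of 1.79 at day 28 (SE 0.50, FDR 0.112). NR1D1, the repressor of ARNTL transcription, had 1.17 at day 7 (SE 0.45, edgeR Benjamini-Hochberg FDR = 0.243) and 0.48 at day 28 (SE 0.29, FDR 0.504). For PER1, which feeds back on the dimer, the values were 0.52 (SE 0.22) and 0.36 (SE 0.26). For DBP, an output gene with E-boxes, they were 0.46 (SE 0.29) and 0.69 (SE 0.26). CRY1, the Cryptochrome gene induced by melatonin in the PT, had -0.25 (SE 0.79) and -0.81 (SE 0.67), with the widest errors of the list.

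**Figure D4:**
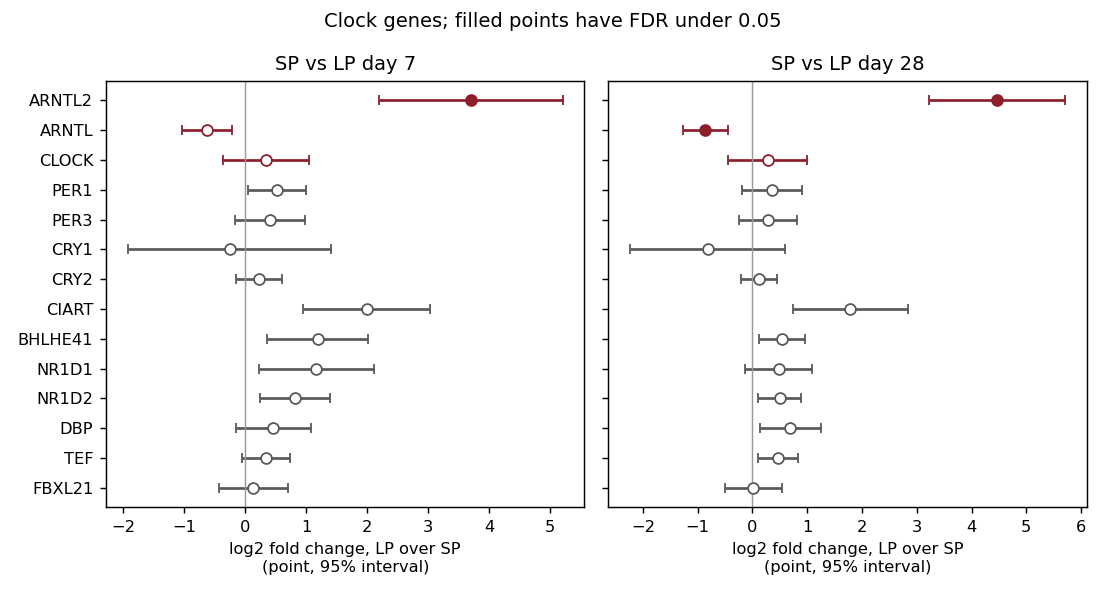
Log2 fold change from SPs to LP day 7 (left) and LP day 28 (right) of the 3 positive-arm genes (red) and of 11 other clock genes (gray), with 95% intervals from edgeR (bars), filled where the FDR was under 0.05. ARNTL2 is filled on both days, ARNTL on day 28, and no other clock gene is filled, while 10 of 11 of them lie above 0 on each day.

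The wide error of CRY1 came with a split of its values. In 10 samples it lay between 16.9 and 34.5 CPM, in the other 13 between 138 and 406 CPM, and in none between. The low samples were SP samples 1 and 3, LP day 1 samples 1 and 6, and the odd-numbered samples of LP days 7 and 28. CRY1 changes over the day in the PT, but the labels give no time of day. The samples of the low range held ARNTL at both ends of its range: SP samples 1 and 3 had the lowest ARNTL of the SP group (33.9 and 30.9 CPM), whereas LP day 1 samples 1 and 6 had the highest of theirs (57.7 and 66.9 CPM).

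Within LP days 7 and 28, odd- and even-numbered samples were compared with the day as a covariate, 6 against 6 samples, a comparison chosen with these values known. Of all genes, 1.02% were called. Of the 11 other clock genes, 6 were called, with CRY1 higher in the even-numbered samples by 3.18 on the log2 scale (SE 0.18, edgeR Benjamini-Hochberg FDR = 2.87e-08) and CIART, NR1D1, DBP, TEF, and BHLHE41 lower. NR1D1 differed by -1.55 (SE 0.25) and DBP by -0.90 (SE 0.14). None of the positive-arm genes was called. The log2 difference was -0.30 for ARNTL2 (95% interval -1.19 to 0.60, edgeR Benjamini-Hochberg FDR = 0.882), -0.10 for ARNTL (95% interval -0.40 to 0.20, FDR 0.879), and -0.13 for CLOCK (95% interval -0.63 to 0.38, FDR 0.919). With odd or even number as a covariate, the log2 fold change of ARNTL2 from SPs was 3.83 at day 7 (edgeR Benjamini-Hochberg FDR = 0.0114) and 4.42 at day 28 (FDR 0.00123). That of ARNTL at day 28 was -0.86 (FDR 0.0479). On SPs and at LP day 1, odd and even numbers did not follow the CRY1 ranges, so this covariate does not account for the split there.

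**Figure D5:**
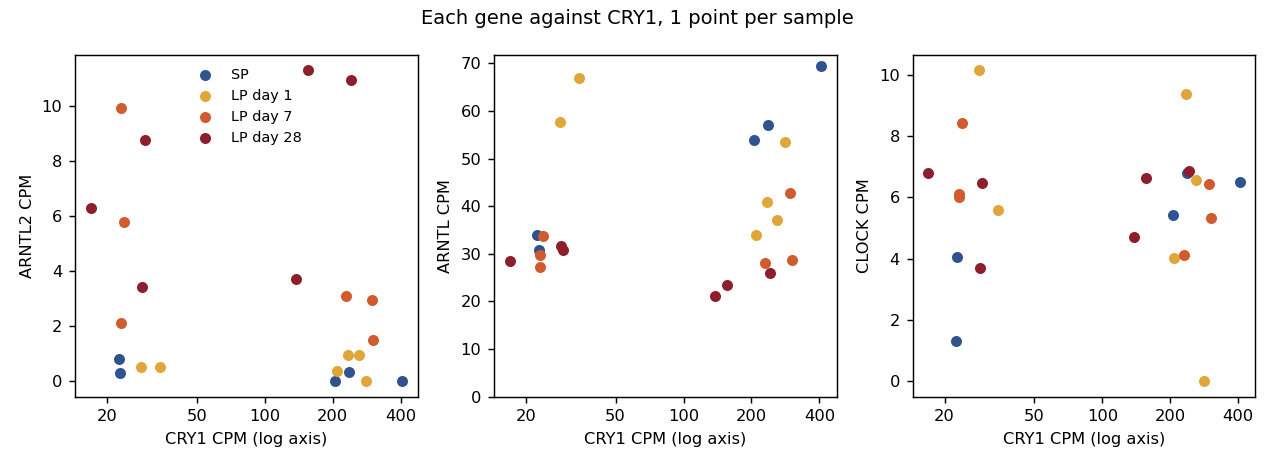
CPM (linear axis) of ARNTL2, ARNTL, and CLOCK against CRY1 CPM (log axis), with 1 point for each of the 23 samples, colored by group. CRY1 falls in 2 ranges, 16.9 to 34.5 CPM and 138 to 406 CPM, and samples of LP days 7 and 28 hold ARNTL2 above the SP and LP day 1 samples in both.

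The deviations of the members from their group means were compared over the 23 samples, on the log2(CPM + 0.5) scale, among 33 relations between members and other clock genes. CRY1 was left out because of its split values. ARNTL2 and ARNTL gave a Pearson r of -0.29 (permutation p 0.174, adjusted 0.411) and a Spearman rho of -0.30 (permutation p 0.166, adjusted 0.453). For ARNTL2 and CLOCK, r was 0.34 (permutation p 0.0858, adjusted 0.386) and rho 0.38 (permutation p 0.0564, adjusted 0.372). For ARNTL and CLOCK, r was 0.15 (permutation p 0.628, adjusted 0.715) and rho 0.37 (permutation p 0.125, adjusted 0.413). Without the 2 samples farthest from the median of the gene named first, these r values were -0.31, 0.39, and 0.11. LP day 1 sample 4, with 0 CLOCK counts, was not among the samples left out and stayed in all of them. A single relation, between ARNTL2 and NR1D2, passed after adjustment, and only by rank: rho was 0.68 (permutation p 0.00111, adjusted 0.0366), whereas r was 0.65 (permutation p 0.00265, adjusted 0.0874) and 0.52 without LP day 7 samples 2 and 5. The samples share depth and RNA input, which were not tested as a source of these relations.

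Genes with the profile most like each member were sought among genes that could be paired with a symbol, which are again those of the study's lists. Over all 23 samples ARNTL2 was most like CYP4V2, a fatty acid hydroxylase (r = 0.89), EZH2, the histone methyltransferase of the Polycomb repressive complex (r = 0.88), and VMO1 (r = 0.85). ARNTL was most like NPSR1, the neuropeptide S receptor (r = 0.84), HIST1H1C, a linker histone (r = 0.69), and SOX14, a transcription factor (r = 0.69). CLOCK was most like NEGR1 (r = 0.83), HOMER1 (r = 0.83), and KSR2 (r = 0.82). For CLOCK these values rested on the shallow sample, and without LP day 1 sample 4 they were 0.44, 0.44, and 0.48. Once group means were removed, ARNTL2 was most like SRRM4 (r = 0.76), PPP2R1B (r = 0.68), and PDE7A (r = 0.67), and ARNTL most like NPSR1 (r = 0.63), FBXL21 (r = 0.60), and EPCAM (r = 0.57). NPSR1 thus led for ARNTL by both measures, whereas none of the genes nearest to ARNTL2 did so. For CLOCK they were CRYBB1 (r = 0.86), HOMER1 (r = 0.85), and INPP4B (r = 0.83), or 0.61, 0.61, and 0.70 without LP day 1 sample 4.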

How the data were processed

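PT RNA from 23 samples was sequenced, and the authors deposited raw read counts per Ensembl gene (build Oar_v3.1). The submitters' processing notes name Bowtie and HTSeq, whereas the file headers have the form of featureCounts on TopHat alignments. Which made the counts, and whether strand was used, is not given in the sources used here. Groups were taken from the labels. Members and gene lists were chosen with earlier results of these data known.

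For each pair of groups, genes over 1 CPM in a number of samples no less than the smaller group's size were TMM normalized and tested with edgeR 4.0.16 (R 4.3.3, quasi-likelihood, Benjamini-Hochberg FDR under 0.05), after a test on simulated data. SE was taken from the log2 fold change and the F statistic. CPM per sample were normalized over all samples. Ratios and relations used log2(CPM + 0.5), exact permutation tests (scipy 1.17.1), and 100000 permutations within groups, respectively. Named genes were the members, listed clock genes called in any comparison, CRY1, NR1D1, DBP, PER1, and the 3 genes most like each member. CIART, NR1D2, and the remaining clock genes were named after their values were seen. Alternatives were DESeq2 1.42.0, other normalizations, no filter, a joint fit, other pseudocounts, covariates, SP samples 2, 3, and 5 alone (a set taken from an earlier analysis of these data), and leaving out samples. The fits by set A or B were added after the data were seen. Over genes above 1 CPM in at least 5 samples, deviations of same-numbered samples had a mean r of -0.04 to 0.07, at most 0.245 in a pair. Numbers were therefore not used as pairs, although odd- and even-numbered samples differed in 1.02% of genes within LP days 7 and 28. Symbols were known for 1259 identifiers. Other listed genes and sequences were not analysed here, and 1 listed gene is not reported here.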

Additional observations from a re-analysis of the deposited data

Results flagged for a closer look

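Among 24 groups of values tested by Dixon's criterion, 3 held a sample far from the others of its group, and chance gives about 1 in 20. LP day 1 sample 4 stood apart in the log2 ratio of ARNTL2 to CLOCK, at 0.0, and in that of ARNTL to CLOCK, at 6.75. Both follow from its 0 counts for CLOCK, and in the first also for ARNTL2, at a total of 307952 counts. LP day 28 sample 3 stood apart in the log2 ratio of ARNTL to CLOCK, at 2.93, with the highest ARNTL (31.6 CPM) and the lowest CLOCK (3.70 CPM, 13 counts) of its group.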

How the results depend on the processing

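Depth limits ARNTL2 on SPs and at LP day 1 (0 to 3 counts a sample) and CLOCK throughout, and every comparison with SPs shares the same 5 samples. ARNTL2 kept its direction in every fit between groups and ARNTL in every fit from SPs to days 7 and 28. In edgeR fits, the call of ARNTL2 from SPs to day 7 was lost with the set (A or B) as a covariate (3.61). It was also lost within set A (2.89) or set B (4.86), and with SP samples 2, 3, and 5 only (4.97). For that change DESeq2 gave no adjusted p (log2 fold change 3.85, unadjusted DESeq2 p 4.28e-06). The calls of ARNTL2 at day 28 were lost within the sets alone (from SPs 4.17 and 5.19, from day 1 3.22 and 3.96), which hold fewer samples. The call of ARNTL from SPs to day 28 was lost with upper-quartile normalization (-0.85), the set as a covariate (-0.85), set A (-0.43), set B (-1.38), and SP samples 2, 3, and 5 (-0.93); the cause was not tested. From day 1 to day 28 it was gained with DESeq2 (-0.82, adjusted p 0.00806) and without a filter (-0.81, FDR 0.0457). Values that were never called turned sign for ARNTL from SPs to day 1 in set A (0.19) and for CLOCK in set B (from SPs -0.66, -0.24, and -0.15 at days 1, 7, and 28, and within LPs 0.40, 0.092, and 0.49 for days 1 to 7, 7 to 28, and 1 to 28).

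With the sample number as a replicate block, the log2 fold change of ARNTL from SPs to day 28 was -0.76 (edgeR FDR 0.257), and no other call of a member was lost. The block moved the number of genes called from 40 to 165 at day 7 and from 100 to 40 at day 28. Odd or even number as a covariate gave 334 genes called at day 7 and 154 at day 28. From SPs to day 1, the untested ARNTL2 value of 1.13 became 2.68 with SP samples 2, 3, and 5. With a pseudocount of 1, the ratio of ARNTL2 to CLOCK at day 7 differed from SPs by 1.495 (adjusted exact permutation p 0.0519) and that of ARNTL to CLOCK at day 1 by -0.045. With 0.25, ARNTL2 to CLOCK differed by 1.77 from day 1 to day 7 (adjusted exact permutation p 0.0429). With SP samples 2, 3, and 5, ARNTL to CLOCK at day 28 differed by -0.98 (adjusted exact permutation p 0.0779).

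Leaving out each sample in turn gave the following ranges where a call or a sign changed. From SPs, ARNTL ranged from -0.17 to 0.12 at day 1 and from -0.99 to -0.70 at day 28, and ARNTL2 from 0.82 to 2.09 at day 1 (2.09 without SP sample 1) and from 3.22 to 4.49 at day 7. Within LPs, CLOCK ranged from -0.30 to 0.0024 for days 1 to 7 and from -0.15 to 0.048 for days 7 to 28, and ARNTL from -0.91 to -0.69 for days 1 to 28. The ratio of ARNTL2 to ARNTL ranged from 0.89 to 1.39 for days 7 to 28. That of ARNTL2 to CLOCK ranged from 1.75 to 2.58 for SPs to day 7, from 1.29 to 2.00 for days 1 to 7, and from 0.72 to 1.16 for days 7 to 28. That of ARNTL to CLOCK ranged from -0.64 to 0.30 for SPs to day 1 and from -1.48 to -0.54 for days 1 to 28. Numbers of genes called moved by over 1.5 times, from 4 to 357 for SPs to day 7, 7 to 346 for SPs to day 28, 1 to 12 for days 1 to 7, 0 to 38 for days 7 to 28, and 6 to 63 for days 1 to 28, over fits other than those leaving out a sample.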
